A study of Mus musculus with 22 samples.

Results

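The 10 genes described here carry glucose into the cell, break it down and turn over lactate. *Slc2a1* encodes the glucose carrier GLUT1, *Hk1*, *Gpi1*, *Pfkl*, *Aldoa*, *Tpi1* and *Pgk1* encode 6 enzymes of the glycolytic chain, *Ldha* and *Ldhb* encode the 2 main subunits of lactate dehydrogenase, and *Slc16a1* encodes the monocarboxylate transporter MCT1. They were taken by symbol from the count matrix and not by a rule on their values, though with earlier results of these data known. They are 10 of its 23453 genes. All 10 had a read in at least 5 of the 22 cells and so passed the filter that left 12719 genes. The cells were single astrocytes from primary cultures of the cortex of C57BL/6 mouse pups at postnatal day 0 to 1, each aspirated after its calcium response to EtOH had been imaged. For sequencing the paper chose the highest of its EtOH doses, given as a brief acute application. By that response 6 cells were S-type (a sustained signal that rose and decayed slowly), 6 were T-type (a brief transient), 5 were M-type (a mixture of both patterns) and 5 were nonresponsive (NR). NR cells had received EtOH as well, so none of the 4 groups stands for untreated astrocytes.

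Every culture had grown in medium with 25 mM glucose, 1 mM pyruvate and 4 mM glutamine, had been without serum for the last 24 h, and was imaged in saline with 16 mM glucose. Before replating, the flasks had been shaken for 6 h and given cytosine arabinoside for 12 h to remove other cell types. The labels name neither the pup, the culture nor the collection time of a cell, so cells of 1 type may share all of these. The paper describes collection of single astrocytes at more than 1 time after exposure. Each type was therefore treated as 1 sample, no test between types was made, and the spread between cells is given as a description.

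Glycolysis splits glucose into pyruvate in the cytosol and yields ATP without oxygen. Lactate dehydrogenase is a tetramer of LDHA and LDHB subunits that interconverts pyruvate and lactate, and MCT1 moves lactate across the membrane together with a proton. Astrocytes are known for a high rate of glycolysis and for releasing lactate, which neurons can take up and oxidise, and several of these genes are classic targets of hypoxia-inducible factors.

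The promoters of *Ldha*, *Ldhb* and *Slc16a1* are shown because they sit at the lactate end of the chain. Each is the RefSeq window (GRCm38.p6) from 250 bases before to 50 bases after an annotated start, printed 5′ to 3′ on the gene's strand. Capitals mark the cores ACGTG and GCGTG of the hypoxia response element on either strand, so that CACGT and CACGC are the same letters read on the other strand and the palindrome CACGTG counts on both. *Ldha* lies on the plus strand at chr7:46845554-46845853, *Ldhb* on the minus strand at chr6:142507908-142508207, and *Slc16a1* on the plus strand at chr3:104638414-104638713.
Ldha: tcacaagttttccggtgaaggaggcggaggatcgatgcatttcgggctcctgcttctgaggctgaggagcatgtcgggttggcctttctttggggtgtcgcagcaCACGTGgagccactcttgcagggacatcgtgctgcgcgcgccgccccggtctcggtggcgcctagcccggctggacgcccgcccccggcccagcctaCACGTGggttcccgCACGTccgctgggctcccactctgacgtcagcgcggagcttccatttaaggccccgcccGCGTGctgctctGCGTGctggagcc
Ldhb: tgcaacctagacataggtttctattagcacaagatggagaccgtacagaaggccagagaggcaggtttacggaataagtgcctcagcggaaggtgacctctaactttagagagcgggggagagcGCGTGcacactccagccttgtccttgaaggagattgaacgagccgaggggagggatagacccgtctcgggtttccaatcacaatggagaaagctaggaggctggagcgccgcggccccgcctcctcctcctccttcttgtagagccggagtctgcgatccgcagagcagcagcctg
Slc16a1: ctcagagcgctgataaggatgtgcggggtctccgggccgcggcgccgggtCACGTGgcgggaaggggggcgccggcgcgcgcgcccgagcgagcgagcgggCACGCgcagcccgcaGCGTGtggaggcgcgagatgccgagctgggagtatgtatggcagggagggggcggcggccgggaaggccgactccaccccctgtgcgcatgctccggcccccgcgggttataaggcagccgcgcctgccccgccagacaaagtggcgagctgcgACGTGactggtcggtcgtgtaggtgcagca
The *Ldha* window shown held 5 copies of ACGTG and 2 of GCGTG, and a second *Ldha* window in the table, not printed, held 0 and 2. The *Ldhb* window held 0 and 1, and the *Slc16a1* window 3 and 2. Of all 32851 promoter windows in the table, 43.8% held either core, 19.6% ACGTG and 32.4% GCGTG. Of the 14 windows annotated for the 10 genes, 10 (71.4%) held one, while neither core was in the windows of *Gpi1* and *Tpi1*, in 1 of 2 for *Hk1* or in 1 of 3 for *Aldoa*. These matches are letters in a window, and no binding was measured here.

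Libraries held 2937786 to 22131076 counted reads, with a median of 16965582. Normalized counts are reads divided by a size factor of the cell, which was 0.183 to 1.56 for T-type cells and 0.923 to 2.31 for all others, so T-type held the cells with the smallest factors. J162_16 stood apart, with 12564138 reads but a factor of 0.276 and reads in 6319 genes, the fewest of all cells, and its normalized counts are therefore high against its CPM. The 10 astrocyte markers summed to 1093 to 7866 CPM (reads scaled to a library total of 1000000) in every cell, with 9 or 10 of them read in each. Markers of other cells and states differed between cells and, in part, between types. Microglia markers summed to 0.735 to 82.4 CPM in NR cells, where 10 of 11 had reads and *P2ry12* was at 0, against 0 to 23.7 CPM in T-type (10 of 11 read, *Tmem119* at 0), 0 to 8.67 CPM in S-type (4 of 11) and 0.136 to 3.15 CPM in M-type (9 of 11, *Csf1r* and *P2ry12* at 0). G2/M genes reached 11129 CPM in the S-type cell J150_3 and 5208 CPM in J151_5, and S phase genes 7466 CPM in J151_5 and 8603 CPM in the T-type cell J165_23, while NR cells held 317 to 502 CPM of S phase genes. Mural cell and fibroblast markers were led by *Acta2* and *Tagln*. Their sums had medians of 1552, 1988 and 2004 CPM in S-, T- and M-type cells against 520 CPM in NR. The sum reached 9437 CPM in the S-type cell J155_9. The list did not move together, since 3, 3 and 4 of its 7 genes tested had a lower mean than in NR. Oligodendrocyte lineage markers reached 3329 CPM in the T-type cell J163_18 and 2235 CPM in the M-type cell J176_25, against at most 492 CPM in NR. Their medians, however, were 689, 539 and 398 CPM in S-, T- and M-type against 432 CPM in NR. Of 7 such genes tested, 2, 4 and 3 had a lower mean than in NR. Neuron markers reached 2048 CPM in J151_5, against at most 374 CPM in NR. The part of these signals in the results that follow was not tested.

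Per kilobase of transcript, the 10 genes reached from among the least to among the most read genes of these cells. *Ldhb* averaged 9142 normalized counts per kb over the 22 cells and stood at percentile 99.2 of 11945 genes. *Pgk1* and *Ldha* followed at 3842 and 3804 per kb, then *Aldoa* at 2162 and *Tpi1* at 1206 per kb, all above percentile 92. *Gpi1*, *Slc16a1* and *Slc2a1* had 375, 366 and 300.0 per kb, *Hk1* 130 per kb (percentile 60.4), and *Pfkl* 4.41 per kb, at percentile 10.5. Among these genes the enzymes from aldolase to lactate dehydrogenase were thus read more per kb than those before them, although outside the 10 *Pfkp* had 2735 and *Pkm* 362 per kb. Amplification began from poly(A) tails, so division by length is a convention here rather than a calibrated molar level. *Pfkl* had reads in 14 cells and each of the other genes in all 22.

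Together the 10 genes took a larger part of the library in NR cells than in most responding cells. They made up 0.209%, 0.396%, 0.431%, 0.419% and 0.507% of all reads in the NR cells J182_2, J183_1, J185_4, J186_5 and J187_6. The M-type cells J172_23, J173_25, J174_13, J175_18 and J176_25 gave 0.281%, 0.251%, 0.194%, 0.331% and 0.373%. In S-type cells the share ran from 0.105% over a median of 0.169% to 0.313%, and in T-type cells from 0.134% over 0.206% to 0.363%. The 4 highest of the 22 cells were all NR, and the remaining NR cell, J182_2, ranked 14. *Ldhb*, *Ldha* and *Pgk1* supplied 50.9% to 86.2% of these reads (median 72.4%). The other 7 genes alone still summed to 879 to 1799 CPM in NR cells against 299 to 905 CPM in T-type, 393 to 814 CPM in S-type and 357 to 956 CPM in M-type cells. In J182_2, J183_1 and J186_5 the microglia markers stood at 43.3, 64.7 and 82.4 CPM, and in J185_4 and J187_6, the cells with the largest shares of the 10 genes, at 2.79 and 0.735 CPM.

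**Figure D1:**
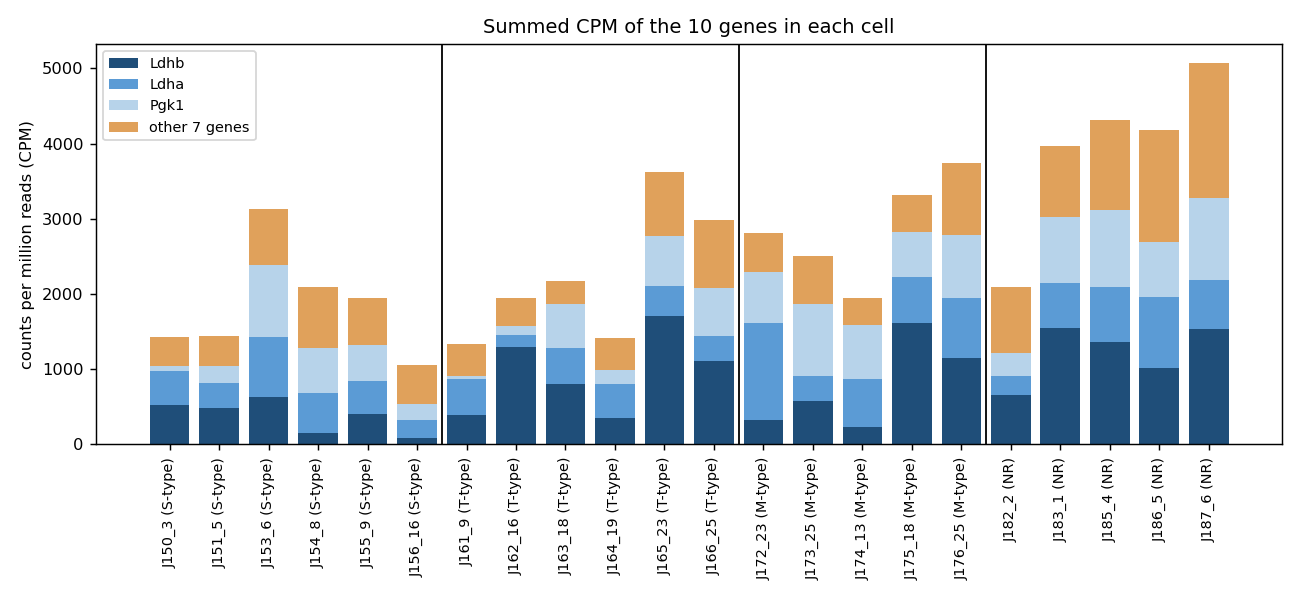
Summed CPM (vertical axis) of the 10 genes in each of the 22 cells (horizontal axis, grouped by response type), with *Ldhb*, *Ldha*, *Pgk1* and the other 7 genes stacked. The NR cells J183_1, J185_4, J186_5 and J187_6 stand at 3961 to 5071 CPM, above every S-, T- and M-type cell, of which J176_25 was highest at 3735 CPM, while the NR cell J182_2 had 2092 CPM.

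Below, a level is the mean of normalized counts over the cells of 1 type, and a ratio is the log2 of 1 level over another. The contrasts of S-, T- and M-type with NR use the same 5 NR cells, so they are not independent of each other. A gene was counted when its levels differed at least 2-fold. In S-type, 6 of the 10 genes were at least 2-fold lower than in NR (22.4% of all 12719 genes were) and 0 were at least 2-fold higher (25.1% of all genes). The median log2 ratio of the 10 was -1.07 against 0.03 over all genes, and 9 of 10 lay below 0 (49.0% of all genes). All but *Hk1* of these 10 kept their sign under each scaling and summary tried and without each cell in turn. In M-type, 5 of 10 were at least 2-fold lower (28.1% of all genes) and 0 higher (19.8%), with a median of -1.24 against -0.20 over all genes and 9 of 10 below 0 (55.9% of all genes). Here *Gpi1*, *Hk1*, *Tpi1*, *Aldoa*, *Ldhb* and *Slc16a1* kept their sign throughout. Without the NR cell J187_6 the count in M-type was 3 (26.5% of all genes). The astrocyte markers lay on the same side of NR, 8 of 10 below 0 in S-type (median -0.83) and 10 of 10 in M-type (-0.66), and with 7 of 10 in T-type (-0.56). Their part in the result was not tested.

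The position of T-type depended on the scaling and on how its cells were summarised. With size factors 3 of 10 genes were at least 2-fold lower, a share near the 32.4% of all genes, and 0 were higher (28.6% of all genes). The median was -0.69 against -0.05 over all genes, and 8 of 10 lay below 0 (51.0% of all genes). Only *Gpi1*, *Pfkl*, *Pgk1*, *Ldha* and *Slc16a1* stayed below 0 in every setting given here and with every cell left out. With CPM 5 of 10 were at least 2-fold lower (37.9% of all genes) and 10 of 10 below 0, with a median of -0.93. S-type with CPM also had a median of -0.93, but against 0.02 over all genes. In T-type the all-gene median itself was -0.45 with CPM. Relative to the all-gene median the 10 genes lay at -0.64 with size factors and -0.48 with CPM. They lay at 0.03 when a type was summarised by the median of its cells and 0.24 by their geometric mean. Against S-type, T-type had 2 genes at least 2-fold higher (*Ldhb* and *Aldoa*; 26.0% of all genes) and 2 lower (*Pfkl* and *Slc16a1*; 32.2%), with a median of 0.32 against -0.07 over all genes. With CPM the median was -0.23 against -0.44 over all genes. *Aldoa* was under 2-fold without J162_16.

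**Figure D2:**
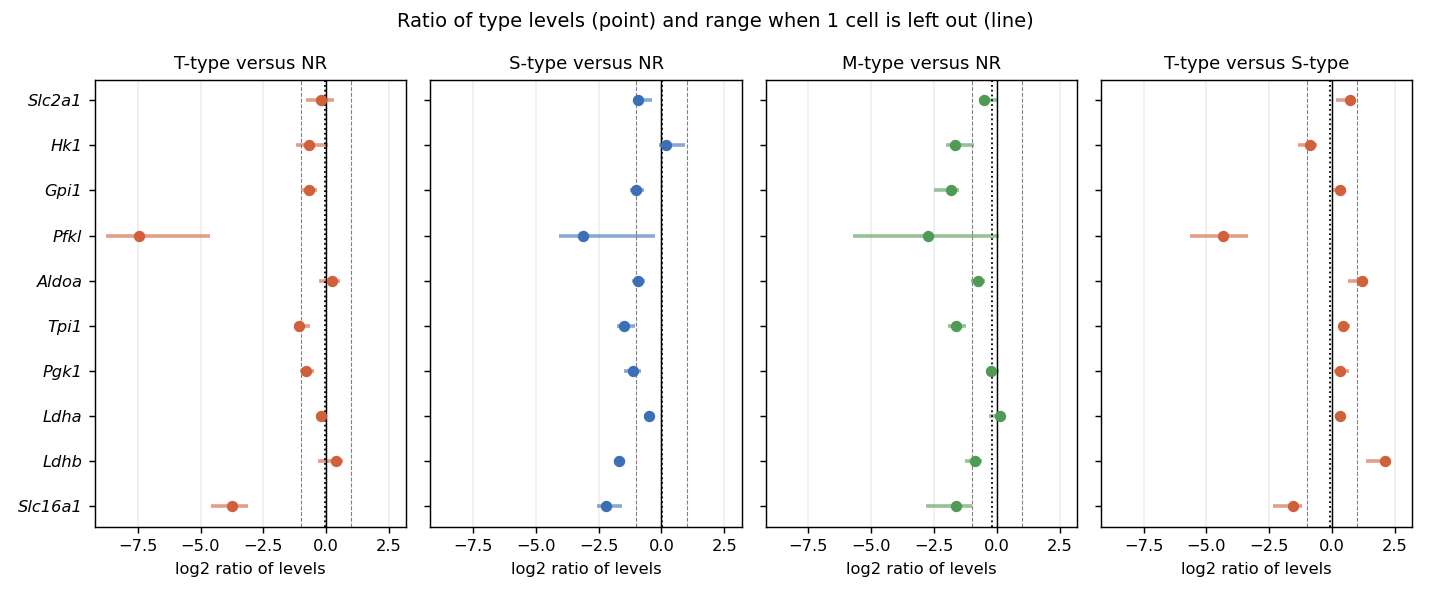
Log2 ratio of levels (horizontal axis) of each of the 10 genes (vertical axis) in 4 contrasts, where points give the ratio, bars the range when any 1 cell is left out, dashed lines 2-fold and the dotted line the median of all genes. In S-type versus NR 9 of 10 points lie below 0, *Pfkl* has the widest bars, and *Ldhb* lies on either side of 0 in T-type versus NR depending on J162_16.

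*Slc2a1*, at chr4:119108711-119137983 on the plus strand, encodes the carrier through which astrocytes take up most of their glucose. Its normalized counts were 1165, 821, 837, 802 and 889 in the M-type cells and 942, 518, 2889, 478 and 1567 in the NR cells. S-type cells ran from 323 over a median of 662 to 894, and T-type cells from 297 over 757 to 2878. All 5 M-type cells lay between 802 and 1165, while T-type and NR cells lay on both sides of that band. The mean was 903 ± 150 (SD, n = 5) in M-type and 1279 ± 1001 (n = 5) in NR, against 670 ± 211 (n = 6) in S-type and 1097 ± 1014 (n = 6) in T-type. No log2 ratio to NR passed 2-fold: it was -0.93 in S-type, -0.50 in M-type and -0.22 in T-type. That of T-type turned positive without the NR cell J185_4 (0.32) and without J162_16 and J163_18 together. That of M-type did so without J185_4 (0.04). By length, *Slc2a1* made up over 50% of the reads of *Slc2a1*, *Slc2a3* and *Slc2a4* in 18 of 22 cells. Its mean share was 96.5% ± 4.09 in M-type, where the neuronal-type carrier *Slc2a3* averaged 37.7 normalized counts, and 68.9% ± 24.4 in NR, 73.9% ± 33.8 in T-type and 74.9% ± 20.3 in S-type. *Slc2a4*, the insulin-responsive carrier, was read in 10 cells and held 88% of its NR level in J187_6.

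*Hk1* (chr10:62268855-62379908, minus strand) encodes the hexokinase that traps glucose in the cell as glucose 6-phosphate and was the exception to the S-type pattern. S-type cells held 299 to 1444 normalized counts with a median of 765. T-type cells split between 54.4 and 95.7 in 3 cells and 422 to 1107 in the other 3. M-type cells gave 56.3, 209, 97.5, 423 and 351, and NR cells 118, 652, 756, 172.2 and 1887. The ratio of S-type to NR was 0.17, with a counting interval of 0.12 to 0.23, and it was below 0 without J151_5, J182_2 or J186_5. In M-type it was -1.66 (-1.73 to -1.58), and -0.90, under 2-fold, without J187_6, which held 52.6% of the NR level. These intervals are exact binomial 95% intervals (Clopper-Pearson) of the split of reads between 2 types, and they cover counting error only, in reads that carry no molecular identifiers.

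The choice between hexokinase genes differed from cell to cell. *Hk2*, the more inducible hexokinase, supplied nearly all reads that *Hk1* did not, and each gene led in 11 of the 22 cells. By length, the *Hk1* share was 80.3% ± 17.6 in S-type, with 5 of 6 cells over 50%, 53.9% ± 37.8 in T-type, 33.3% ± 22.9 in M-type, with 1 of 5 over 50%, and 51.6% ± 32.6 in NR. The M-type cells gave 13.6%, 17.1%, 22.9%, 45.2% and 67.9%, and the S-type cells 48.1% to 99.8%, so that the 2 types overlapped in 1 S-type and 1 M-type cell. NR cells reached from 8.22% (J182_2) to 98.8% (J187_6). Because both genes are read in the same library, this share does not depend on the scaling between cells.

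*Gpi1* (chr7:34201330-34230336, minus strand) encodes glucose 6-phosphate isomerase, the step between hexokinase and phosphofructokinase. NR cells gave 811, 966, 3240, 1285 and 2787 normalized counts and M-type cells 392, 152, 261, 475 and 1300. S-type cells ran from 360 over 794 to 1587 and T-type cells from 352 over 999 to 2154. Every M-type cell but J176_25 lay below every NR cell. The ratio to NR was -1.82 (-1.86 to -1.77) in M-type, staying between -2.51 and -1.50 without any 1 cell, -1.02 in S-type and -0.69 in T-type. That of S-type was -0.91 with CPM, under 2-fold. Of its 75-base transcript windows, 14.8% also occur in other genes, chiefly *Gm1840*. Read pairs there may not have been counted as unique, which was not tested.

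*Pfkl* (chr10:77986947-78010083, minus strand), the liver-type phosphofructokinase of the committed step, was almost unread. The NR cells gave 4.86, 248, 0.719, 25.7 and 0 normalized counts, the M-type cells 0, 2.80, 37.5, 1.04 and 0.432, S-type cells 0 to 22.5 with a median of 2.73, and T-type cells 0 in 4 and at most 1.28 in the other 2. The whole T-type held 3 reads and NR 489, of which J183_1 carried 88.8% of the level. The T-type to NR ratio was -7.44 with a counting interval of -9.72 to -5.88, and -4.60 without J183_1. Without that cell the ratio of S-type was -0.27 instead of -3.10, and that of M-type 0.095 instead of -2.74, so these values rest on 1 cell. The step was read from another gene: *Pfkp*, the platelet-type form, made up 86.7% ± 14.3 of the family's reads per length over the 22 cells, *Pfkm* 13.0% ± 14.4 and *Pfkl* 0.255% ± 0.619. *Pfkp* led in 21 of 22 cells. In the T-type cell J164_19 *Pfkm* did, with 63.0%. *Pfkp* levels were 4666 in S-type, 4725 in M-type, 8094 in NR and 26223 in T-type, where J162_16 alone held 82.4%.

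**Figure D3:**
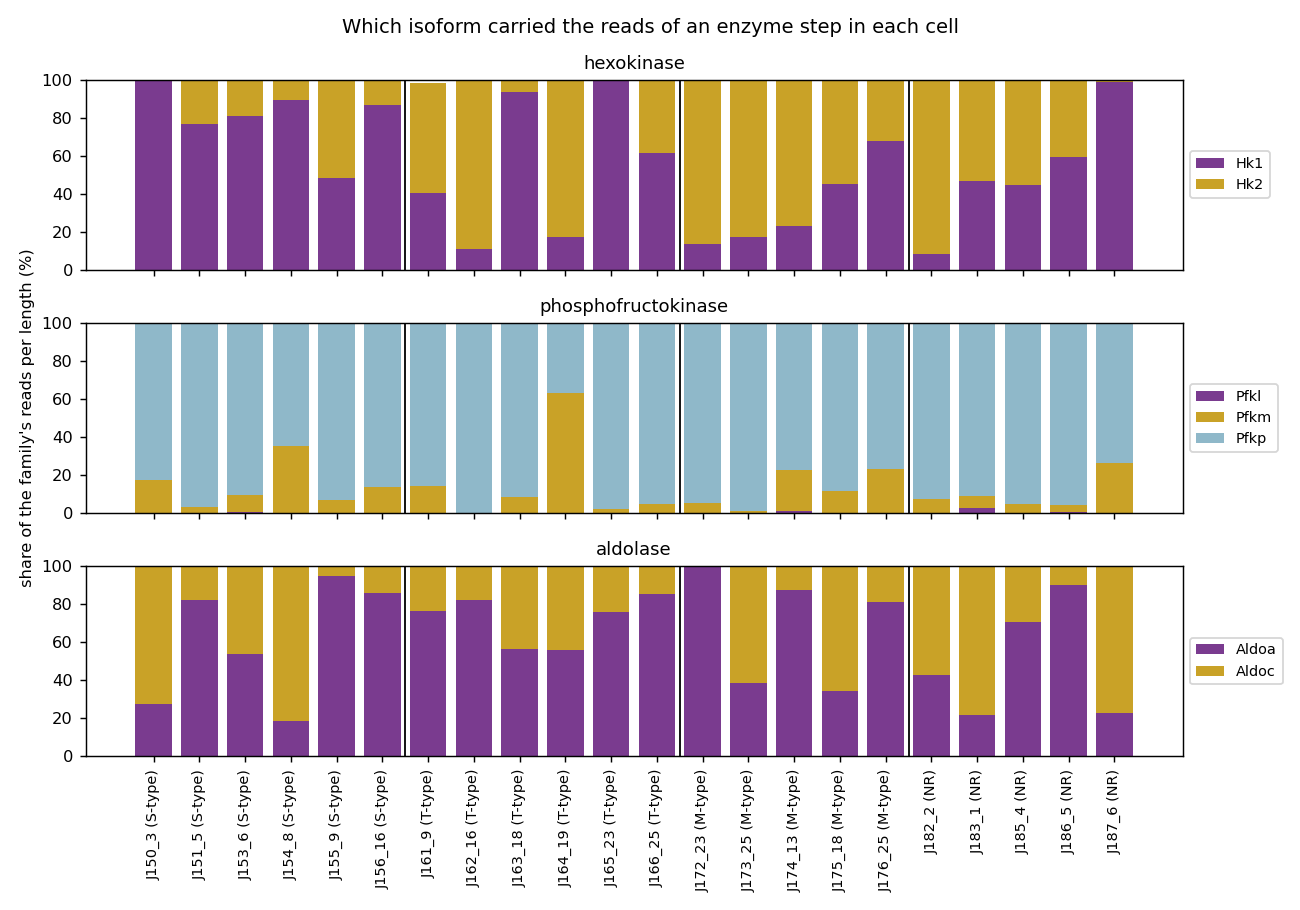
Share (vertical axis, percent of the family's reads per transcript length) of each hexokinase, phosphofructokinase and aldolase gene in each of the 22 cells (horizontal axis, vertical lines between response types). *Hk1* exceeds 50% in 5 S-type cells but in only 1 M-type cell, *Pfkp* fills most of the phosphofructokinase bar in 21 cells, and *Aldoa* exceeds 50% in all 6 T-type cells and in 2 of 5 NR cells. By raw reads, not drawn, *Aldoa* exceeds 50% in 4 T-type and 2 NR cells.

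*Aldoa* (chr7:126795234-126800751, minus strand) encodes aldolase A, which cuts the doubly phosphorylated hexose into triose phosphates. T-type cells held 829 over 3694 to 12247 normalized counts and S-type cells 1029 over 2136 to 3127. M-type cells gave 4064, 1452, 1002, 1451 and 4064, and NR cells 1193, 2131, 3148, 6727 and 7019. T-type therefore held both the lowest and the highest cell of all 22, although in CPM the latter, J162_16, had 269 against 597 in the NR cell J186_5. T-type exceeded S-type by 1.18 (1.15 to 1.21), and by 0.65 without J162_16, which carried 42.6% of the T-type level. The ratio to NR was -0.94 in S-type, -0.75 in M-type and 0.25 in T-type, which became -0.45 with CPM. *Aldoc*, the astrocyte-enriched aldolase, shared the step: *Aldoa* made up 71.9% ± 12.8 of the family per length in T-type (55.7% to 85.1%, over 50% in 6 of 6 cells), 68.2% ± 30.0 in M-type, 60.5% ± 32.2 in S-type and 49.6% ± 30.0 in NR. As shares of raw reads these means were 59.8%, 59.6%, 51.3% and 39.5%. *Aldoa* then exceeded 50% in 4 of 6 T-type cells, so the count of 6 rests on the division by length. The NR cell J187_6 held 42403 normalized counts of *Aldoc*, 67.5% of the NR level.

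*Tpi1* (chr6:124810586-124814296, minus strand) encodes triose phosphate isomerase, which lets both triose products continue down the chain. NR cells gave 1581, 1773, 1790, 7387 and 5827 normalized counts and M-type cells 895, 1547, 659, 702 and 2126. S-type cells ran from 722 over 1236 to 2485, and T-type cells from 191 over 2154 to 2579. In S-type and in M-type all cells but 1 lay below the lowest NR cell, while 4 of 6 T-type cells lay above the median NR cell. The ratio to NR was -1.63 (-1.66 to -1.60) in M-type and -1.49 (-1.52 to -1.45) in S-type, and left-out cells moved these to between -1.95 and -1.21 and between -1.77 and -1.07. In T-type it was -1.07, but 0.27 by the median of cells. J186_5 and J187_6 stood far above the other NR cells, and J163_18, with 35 reads, far below the other T-type cells.

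*Pgk1* (chrX:106187100-106203699, plus strand) encodes phosphoglycerate kinase, the first step of the chain that yields ATP. M-type cells gave 8743, 12696, 7290, 6110 and 7915 normalized counts and NR cells 3750, 8865, 11088, 8273 and 17936. S-type ran from 832 over 4082 to 9615, and T-type from 1158 over 6434 to 9431. M-type again formed the tightest group, at 8551 ± 2509 (SD, n = 5), against 9982 ± 5184 (n = 5) in NR, 4594 ± 3097 (n = 6) in S-type and 5673 ± 3347 (n = 6) in T-type. The ratio to NR was -1.12 in S-type, which was -0.93 with CPM, -0.82 in T-type and -0.22 in M-type. Of its windows, 67.5% also occur in other genes, nearly all in the copy *Pgk1-rs7*, so a count of unique read pairs may miss part of the transcript.

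**Figure D4:**
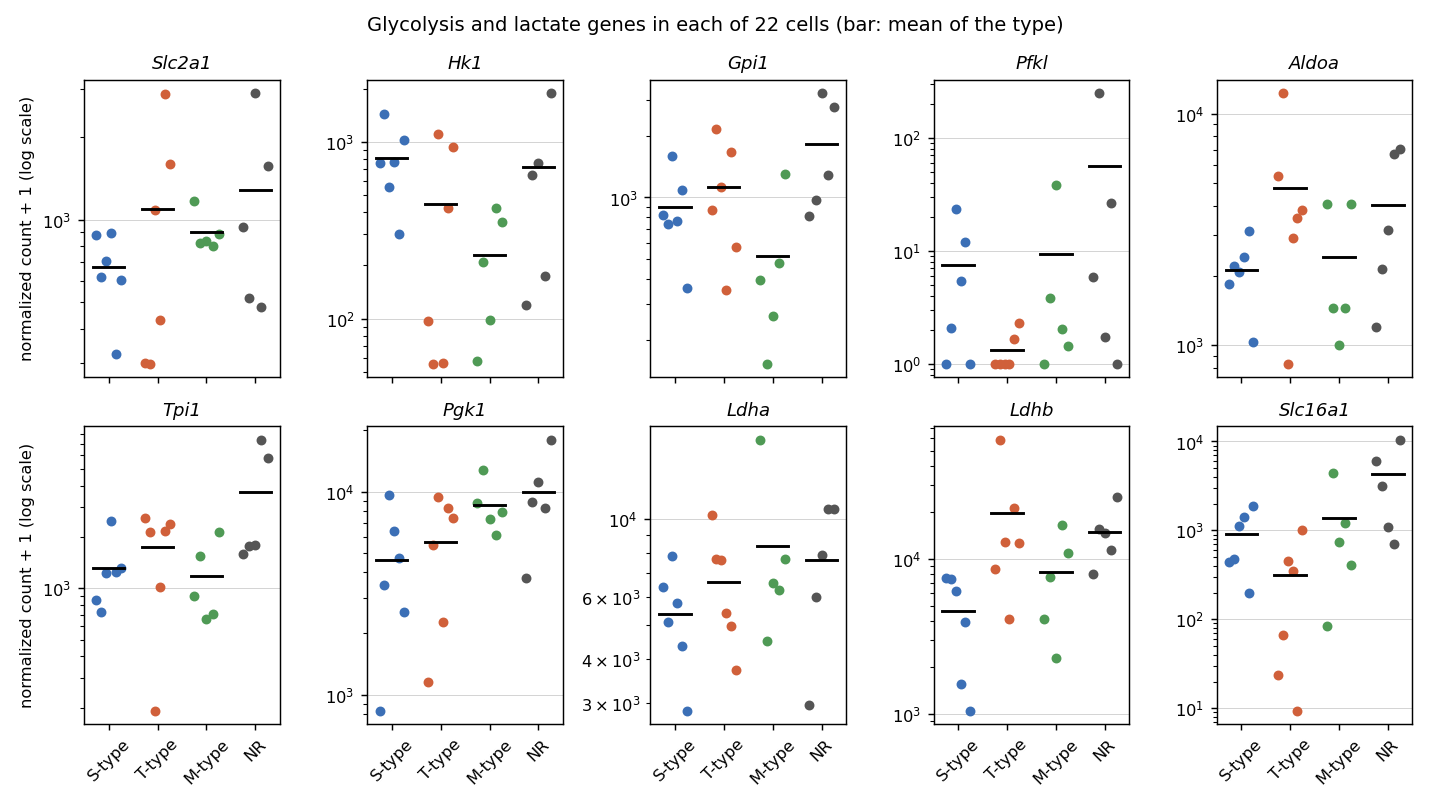
Normalized count + 1 (vertical axes, log scale, each with its own range) of the 10 genes in each cell, by response type (horizontal axes), with 1 point for each cell and a bar at the mean of the type. Every S-type cell lies below every NR cell for *Ldhb*, *Slc16a1* is highest in NR on average, and the cells of neighbouring types overlap for all 10 genes.

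*Ldha* (chr7:46841475-46855627, plus strand) encodes the subunit that predominates in muscle and in glycolytic tissue and of the 10 genes it stayed closest to NR over the 3 contrasts with size factors. NR cells gave 2958, 6011, 7913, 10667 and 10641 normalized counts, and M-type cells 16780, 4495, 6576, 6262 and 7671. S-type ran from 2845 over 5424 to 7826 and T-type from 3706 over 6512 to 10258. Means were 7638 ± 3272 (SD, n = 5) in NR, 8357 ± 4845 (n = 5) in M-type, 5379 ± 1717 (n = 6) in S-type and 6610 ± 2374 (n = 6) in T-type. No ratio to NR passed 2-fold. It was -0.51 in S-type (between -0.71 and -0.36 without any 1 cell), -0.21 in T-type, and 0.13 in M-type, which was -0.29 without J172_23.

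*Ldhb* (chr6:142490249-142507957, minus strand) encodes the subunit that predominates in heart and other oxidative tissue, and it was the gene on which S-type and NR cells did not overlap. The NR cells held 7970, 15620, 14787, 11432 and 25041 normalized counts. S-type cells ran from 1046 over 5078 to 7512, all 6 below the lowest NR cell. Among all genes, 0.204% had every S-type cell below every NR cell, and *Ldhb* did so with CPM too. The level was 4617 ± 2879 (SD, n = 6) in S-type and 14970 ± 6391 (n = 5) in NR, a log2 ratio of -1.70 (-1.71 to -1.68) that stayed between -1.89 and -1.43 without any 1 cell. Its fold was 3.24, in a direction that all settings shared. The S-type cells J150_3 and J151_5, rich in G2/M reads, held 7512 and 7429 normalized counts, and the other 4 ran from 1046 to 6225. The part of cell cycle state in this was not tested.

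T-type cells had the widest spread of *Ldhb*, at 4106 over 12798 to 58639 normalized counts, and M-type cells gave 4104, 7590, 2294, 16467 and 10982. The T-type mean was 19710 ± 19905 (n = 6), of which J162_16 made up 49.6%. In CPM that cell held 1287, within the 659 to 1549 CPM of the NR cells, and J165_23 was the highest of all with 1708 CPM. T-type exceeded S-type by 2.09 (2.08 to 2.11), or 1.37 without J162_16, and stayed above it in every setting. The ratio to NR was 0.40, but -0.33 without J162_16 and also below 0 with CPM and by the median or geometric mean of cells. M-type lay below NR at -0.85, and at -1.26 without J175_18. Of the *Ldhb* windows, 16.7% also occur in *Gm5514*.

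The balance of the 2 subunits within a cell needs no scaling between cells. *Ldha* made up 21.1%, 21.7%, 27.8%, 40.1% and 23.4% of the lactate dehydrogenase reads per length in the NR cells. In M-type cells it made up 74.6%, 29.8%, 67.3%, 21.5% and 33.4%. S-type cells ran from 33.0% over 45.9% to 72.6% and T-type cells from 8.64% over 23.6% to 48.6%. All NR and T-type cells thus had more *Ldhb* than *Ldha* per length, whereas 2 M-type and 2 S-type cells had more *Ldha*. Means were 50.2% ± 15.8 in S-type, 45.3% ± 23.9 in M-type, 27.5% ± 16.9 in T-type and 26.8% ± 7.90 in NR. As shares of raw reads they were 57.8%, 52.1%, 33.6% and 33.6%, and *Ldha* then led in 4 S-type, 2 M-type, 2 T-type and 0 NR cells. All 6 S-type cells lay above 4 of the 5 NR cells with counting intervals of the raw share that did not overlap, and the NR cell J186_5 lay among the S-type values. Leaving out any 1 cell kept the S-type mean between 45.8% and 53.7% and the NR mean between 23.5% and 28.2%, and without J150_3 and J151_5 the S-type mean was 57.6%. The third gene of the family, *Ldhc*, had reads in 1 cell.

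**Figure D5:**
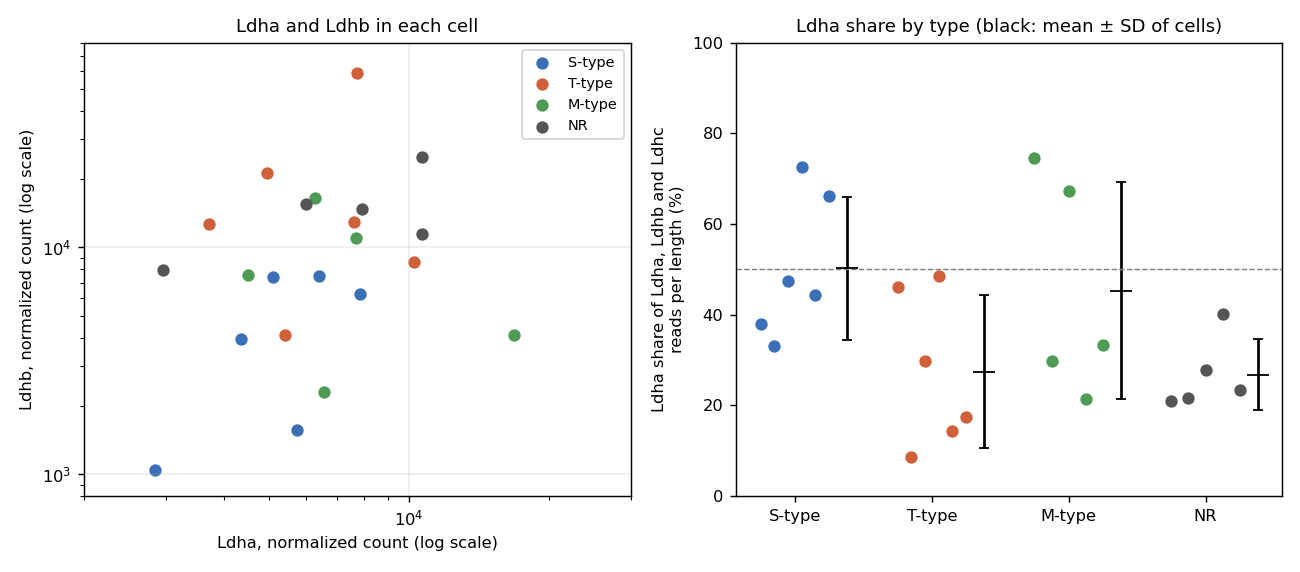
Left, normalized counts of *Ldha* (horizontal axis) and *Ldhb* (vertical axis), both on log scales, in the 22 cells. Right, the *Ldha* share of lactate dehydrogenase reads per length (vertical axis, percent) by response type, with 1 point for each cell, the mean ± SD of the cells in black and a dashed line at 50%, above which lie 2 S-type and 2 M-type cells and no T-type or NR cell.

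*Slc16a1* (chr3:104638668-104658462, plus strand), the carrier that moves lactate out of or into the cell, gave the largest ratios of T-type and S-type to NR among the well-read of the 10 genes. NR cells gave 5983, 3156, 1089, 712 and 10386 normalized counts and M-type cells 82.6, 4439, 743, 1203 and 410.0. S-type ran from 195 over 801 to 1880 and T-type from 8.42 over 209 to 1004. Of T-type cells 5 of 6, of S-type cells 3 of 6 and of M-type cells 2 of 5 lay below the lowest NR cell. The level was 4265 ± 4011 (n = 5) in NR, 1376 ± 1762 (n = 5) in M-type, 921 ± 654 (n = 6) in S-type and 317 ± 383 (n = 6) in T-type. The ratio of T-type to NR was -3.75 (-3.82 to -3.68), a fold of 13.5, and it stayed between -4.57 and -3.11 without any 1 cell. S-type lay at -2.21 (-2.25 to -2.17), and at -1.57 without J187_6. M-type lay at -1.63, at -2.81 without J173_25 and at -0.99, under 2-fold, without J187_6, which carried 48.7% of the NR level. In the NR cells with the most *Slc16a1*, J187_6 and J182_2, microglia markers stood at 0.735 and 43.3 CPM.

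T-type also lay below S-type in *Slc16a1*, at -1.54 (-1.61 to -1.47). *Slc16a1* was nearly the only monocarboxylate transporter read: per length it exceeded 50% of the reads of *Slc16a1*, *Slc16a3* and *Slc16a7* in 21 of 22 cells. In the M-type cell J172_23 *Slc16a7*, the high-affinity carrier MCT2 that neurons use, had 82.4%. *Slc16a3*, the carrier MCT4 often ascribed to astrocytes, had reads in 1 cell.

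In the order of the 4 levels, cells of neighbouring types overlapped for every gene. The gap between neighbouring means exceeded the larger of their SDs only for *Slc2a1* between M-type and S-type and for *Ldhb* between NR and M-type. With size factors NR had the highest mean for 6 genes (*Slc2a1*, *Gpi1*, *Pfkl*, *Tpi1*, *Pgk1* and *Slc16a1*), T-type for *Aldoa* and *Ldhb*, S-type for *Hk1* and M-type for *Ldha*. J187_6 was the highest NR cell for 5 genes and the highest of all 22 for *Hk1*, *Pgk1* and *Slc16a1*, and J162_16 the highest of all for *Aldoa* and *Ldhb*, all in normalized counts.

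The 10 genes did not move as a block from cell to cell. Over the 22 cells, which share size factors and differ in depth, Spearman correlations of log2(normalized count + 1) among the 45 pairs ran from -0.42 to 0.73 with a median of 0.17, and 31 were positive. *Aldoa* and *Tpi1*, which act in consecutive steps, were the most alike (rho 0.73, Pearson r 0.70), then *Gpi1* and *Ldhb* (rho 0.61, r 0.59). *Aldoa* and *Slc16a1* were the least alike (rho -0.42, r -0.39). With CPM the median rho was 0.35, and without J187_6 and J183_1 it was 0.08. Among 6228 well-read genes, those closest to the mean of the standardized 10 were *Pgm2* (rho 0.67), which encodes a phosphoglucomutase, *Cox8a* (0.67), a subunit of cytochrome c oxidase, *0610011F06Rik* (0.63), *Tns3* (0.63), an adaptor of focal adhesions, and *Crip2* (0.63).

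Of 12 other glycolytic enzymes tested, 10 lay below 0 in S-type (49.0% of all genes), 5 of them at least 2-fold (22.4%). In S-type 1 was at least 2-fold higher (25.1% of all genes), and the median was -0.81. In M-type 12 of 12 lay below 0 (55.9% of all genes), 4 of them at least 2-fold, near the 28.1% of all genes, and 0 were higher (median -0.67). T-type had 6 at least 2-fold lower (32.4% of all genes) and 3 higher (28.6%), with a median of -0.58. Without J162_16 the counts were 6 and 1 (32.4% and 25.8% of all genes). *Aldoc* had ratios of -1.23 in S-type, -2.49 in M-type and -2.21 in T-type, but without J187_6 of 0.07, -1.19 and -0.91. *Pkm*, the pyruvate kinase that closes the pathway, had -0.56, -0.56 and 0.16. *Pfkp*, most read of the list, had -0.79 in S-type, -0.78 in M-type and 1.70 in T-type, the last being -0.55 without J162_16. Of 10 other sugar and lactate carriers, 7 were at least 2-fold lower in T-type (32.4% of all genes) and 7 in M-type (28.1%). In S-type 3 were, near the 22.4% of all genes. The medians of these carriers were -2.59, -2.03 and 0.11 in T-, M- and S-type. *Slc2a13*, a proton-coupled inositol carrier and the most read of them, had -0.53 in S-type, but -2.16 in M-type and -2.29 in T-type, and without the NR cell J182_2 it had 0.38, -1.25 and -1.38. *Emb*, which chaperones monocarboxylate carriers to the membrane, had 1.64 in S-type, against -1.91 in M-type and -2.88 in T-type, and in S-type J154_8 held 82.8% of its level (-0.64 without that cell).

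Pathways that leave glycolysis were taken as separate lists. Over all genes, at least 2-fold higher and lower than NR were 25.1% and 22.4% in S-type, 19.8% and 28.1% in M-type. In T-type these shares were 28.6% and 32.4%, and in S-type 49.0% of all genes lay below 0. Of 8 pentose phosphate genes, 5 were at least 2-fold higher in T-type and 1 lower (median 2.20, or 0.97 without J162_16 and 1.36 with CPM). In S-type 3 were higher and 1 lower (0.42), and in M-type 2 and 1 (0.45). *Taldo1*, transaldolase, had a ratio of 3.12 in T-type with 80.1% of the level in J162_16, and *Pgls* 4.22 with 93.8% there. Without that cell they had 1.05 and 0.46. *Tkt*, transketolase, was even among cells: the T-type cells ran from 2344 to 4595 normalized counts and the NR cells from 1579 to 1877, without overlap, a ratio of 0.99. With CPM the ratio was 0.56 and the cells overlapped. Of all genes, 0.189% had every T-type cell above every NR cell. Among 9 genes that bring pyruvate into mitochondria and the citric acid cycle, 8 lay below 0 in S-type, with 0 at least 2-fold higher and 2 lower (median -0.63). M-type had 0 and 1 (-0.08), and T-type 2 and 1 (-0.03). *Pdha1*, of pyruvate dehydrogenase, lay at -0.44 in S-type, -0.46 in M-type and -0.80 in T-type. *Mpc2*, of the pyruvate carrier, had 1.73 in T-type (0.90 without J162_16), -0.87 in S-type (-0.46 without J187_6) and 0.28 in M-type (0.69 without J187_6), and *Dld* 2.72 in T-type with 91.8% of the level in J162_16 (-0.63 without it).

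For glycogen, 16 genes were tested. At least 2-fold higher and lower were 4 and 3 in S-type (median -0.12), 4 and 5 in M-type (-0.25), and 6 and 5 in T-type (-0.03). Most of these counts were near the shares of all genes, 25.1% and 22.4%, 19.8% and 28.1%, and 28.6% and 32.4%. *Ugp2*, which makes the UDP-glucose used for glycogen, had -0.38, -0.26 and -0.06, and 0.05, 0.18 and 0.37 without J187_6. *Ppp1r3c*, the glycogen-targeting phosphatase subunit, had 1.56 in S-type, -1.17 in M-type and -1.02 in T-type, and without the NR cell J182_2 2.09, -0.64 and -0.48. *Pygb*, brain glycogen phosphorylase, singled out after its values were seen, had every S-type cell below every NR cell, with a ratio of -1.49, though the cells overlapped with CPM.

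Regulators and other hypoxia-inducible genes gave no common direction. Of 16 regulators of flux tested, 3 were at least 2-fold higher and 5 lower in S-type (median 0.22), 2 and 5 in M-type (-0.49), and 5 and 3 in T-type (-0.10). For both lists, the shares of all genes were 25.1% and 22.4% in S-type, 19.8% and 28.1% in M-type, and 28.6% and 32.4% in T-type. *Hif1a*, the oxygen-sensitive subunit, had 0.27, -0.61 and 1.80, with 84.2% of the T-type level in J162_16 (-0.60 without it), and *Egln1*, the prolyl hydroxylase that marks it for degradation, 0.24, 0.28 and -0.23 (0.83, 0.87 and 0.36 without J187_6). *Pdp1*, which reactivates pyruvate dehydrogenase, had -0.67, -1.58 and -0.27, and -0.15, -1.05 and 0.25 without J187_6. *Txnip*, a glucose-responsive inhibitor of glucose uptake chosen after its values were seen, had every M-type cell below every NR cell, with a ratio of -3.28, and overlapped with CPM. Of all genes, 0.322% had every M-type cell below every NR cell. The 14 other hypoxia-inducible genes had medians of -0.52 in S-type (2 higher, 6 lower), -0.03 in M-type (3 and 2) and 0.17 in T-type (5 and 3), the last being -0.25 with CPM. Their most read members were *Higd1a* (-0.04, 0.37 and 2.96, with 86.8% of the T-type level in J162_16 and 0.31 without it), *Bnip3l* (-2.08, -0.75 and -0.34) and *P4ha1* (-1.16, -0.65 and -1.59). Without J187_6 the ratios of *Bnip3l* were -1.14, 0.20 and 0.61 and those of *P4ha1* 0.22, 0.73 and -0.21.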

How the data were processed

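Single cells had been amplified by 2 rounds of antisense RNA amplification and sequenced as paired reads of 75 bases, and the authors deposited 1 table of raw read counts, with 23453 gene symbols and 22 cells. Per the study's methods, trimmed reads were aligned to GRCm38 with STAR and unique exonic reads were counted with VERSE, while the submitters' processing notes list STAR and HTSeq, with no versions. The strand setting of the count is not given in the sources used here. The response type written in the table matched the labels in 22 of 22 cells.

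Size factors were medians of ratios over 3670 genes read in all cells, and 12719 genes read in 5 or more cells were kept. The level of a type is the mean over its cells, with a floor of 3 reads per type. Intervals are exact binomial (Clopper-Pearson, 95%) and cover counting error only. Alternatives were CPM, thinned libraries, medians and geometric means of cells, other filters, a pseudocount of 1 and each cell left out. A scaling meant to use edgeR's TMM factors (trimmed mean of M values) was miscomputed, since library size entered it again. Its values are not TMM results and are not given. Leaving out J162_16 with J163_18, or J150_3 with J151_5, and other scalings and left-out cells for the other gene lists were added after seeing the data. Transcript lengths came from GENCODE vM21 and promoters from RefSeq. The ratio step was tested on simulated counts that had counting error only and no spread between cells. That test checks the calculation and says nothing of how a ratio varies with the cells drawn. Python 3.11.15, NumPy 2.4.6, pandas 2.3.3, SciPy 1.17.1, R 4.3.3 and edgeR 4.0.16 were used.

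The 10 genes, the gene lists and the rules were chosen with earlier results of these data known. The text names all 10 genes, at most the 3 most read genes of each other list, isoforms with a mean level of at least 10, and the 5 genes most like the 10. Any other gene is marked as chosen after its values were seen.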

Additional observations from a re-analysis of the deposited data

Results flagged for a closer look

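In 48 groups of 5 or 6 cells of 1 type, the gap between the most extreme cell and its neighbour was compared with the range of the group by Dixon's ratio, and 2 groups exceeded the 95% critical value for their size, where chance alone gives about 1 in 20. *Tpi1* in the T-type cell J163_18 stood far below the other 5 cells, at 7.58 on the log2(normalized count + 1) scale (191 normalized counts from 35 reads), with a ratio of 0.643. *Slc2a1* in the M-type cell J172_23 stood above the other 4 cells, at 10.19 on that scale (1165 normalized counts), with a ratio of 0.726. J163_18 had the smallest library of the series.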

How the results depend on the processing

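Without replicated samples no test between types was possible, so stability was read from other settings and from leaving out cells, and the small size factors of T-type cells limit every T-type value. No paired analysis was possible because the replicate numbers only name cells and no result comes from a test. Of 122 recomputed medians, counts and shares under other settings 110 stayed within their margin. The 122 include the miscomputed TMM scaling, so this count is only a rough description. Other filters leave the ratio of a gene unchanged, so the medians and counts of the genes described here could not move with them. Those values are among the 110 and do not show stability. A pseudocount of 1 hardly moved the medians either. With mean CPM, 5 genes were at least 2-fold lower in T-type than NR (37.9% of all genes). T-type versus S-type then had a median of -0.23 (-0.44 over all genes) and 1 gene higher (16.7% of all genes). With TMM factors the T-type to NR median was 0.30 (0.75 over all genes). T-type versus S-type then had a median of 0.90 (0.51 over all genes). There 4 genes were higher, near the 38.8% of all genes, and 1 lower (25.4% of all genes). With the median of cells, 3 genes were at least 2-fold lower in S-type than NR (18.8% of all genes) and *Tpi1* in T-type lay at 0.27. T-type versus S-type had 1 gene higher with thinned libraries, with medians or geometric means of cells, and without J162_16 and J163_18. *Pfkl* in M-type versus NR ran from -5.71 (without J174_13) to 0.095 (without J183_1). Leaving out 1 cell gave medians from -0.92 to -0.31 for T-type, -1.37 to -0.83 for S-type and -1.38 to -0.74 for M-type versus NR, and 0.17 to 0.50 for T-type versus S-type. The counts of lower genes ran from 2 to 4, from 4 to 8, from 3 (without J187_6) to 6 and from 2 to 3, and that of higher genes in T-type versus S-type from 1 (without J162_16) to 2. Over all genes the shares of lower genes ran from 30.3% to 35.8%, 20.6% to 24.8%, 26.5% to 31.3% and 30.3% to 36.0%. That of higher genes in T-type versus S-type ran from 22.8% to 27.8%. The cause of these shifts was not tested.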
